A study of Arabidopsis thaliana with 3 samples.

Results

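The Arabidopsis thaliana transcription factor GRF5 (growth-regulating factor 5) gave 1057 peaks that lay over exons of non-coding genes and touched no coding exon. They made up 5.56% of the 19008 peaks shared by both GRF5 libraries on the 5 nuclear chromosomes. A peak was a member when the authors' annotation gave it an exon of the same gene in both peak lists and a coding exon in neither. Peaks counted as shared when their overlap reached 50% of the shorter one, with at most 1 partner per peak. The annotation uses the word exon for non-coding genes alone: of the 2756 nuclear genes with an exon entry in either list, 0 were protein-coding in the RefSeq gene table. A further 276 shared peaks covered such an exon together with coding sequence and were left out by the rule.

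The samples were 2 DNA affinity purification sequencing (DAP-seq) libraries of GRF5, called replicates 1 and 2, and 1 input library against which both were called. In DAP-seq a purified transcription factor is mixed with purified genomic DNA, and the fragments it holds are sequenced. Here GRF5 came from Escherichia coli with a His tag, and the DNA was taken from wild-type Col-0 roots, of seedlings kept for 3 days on 0.2 mM nitrate. The DNA carried no chromatin, and the pull-down used an antibody against GRF5 with no control lacking GRF5. The input carries the same root, genotype and growth descriptions, but its treatment label reads control, so whether its seedlings also had low nitrate is not certain. The design text of the series attaches the library names to a chromatin immunoprecipitation instead, and titles and protocols, which state DAP-seq, were followed. Titles and design text call the replicates biological, but no label tells if protein or DNA was prepared afresh for each, and their spread may be technical. No second condition was profiled, so no peak could be tested for a change, and peaks of 1 pair of libraries with a common input are not replicates of each other. The peaks are therefore described by their values in both libraries, by counts and by medians beside those of all shared peaks.

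Non-coding genes fall into several kinds. MicroRNA genes and trans-acting siRNA genes give rise to small RNAs that silence matching transcripts, small nucleolar RNAs guide the chemical modification of ribosomal RNA, and transfer RNAs carry amino acids to the ribosome. Long non-coding RNAs have no long open reading frame and often lie beside or opposite protein-coding genes. Pseudogenes are decayed copies of genes, and in Arabidopsis many of those near the centromeres derive from transposable elements. The growth-regulating factors are themselves held down by the microRNA miR396, which cleaves their transcripts.

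The strongest of the 1057 peaks lay at the pseudogene AT4G06567, on chromosome 4 from 3511332 to 3511804 (TAIR10, 1-based, bounds of replicate 1, as for all positions here). Its fold enrichment, the authors' ratio of fragment pileup at the summit to the background expected from the input, was 9.58 in replicate 1 and 8.33 in replicate 2. The pileup was 403 and 329 fragments, and the summits of both libraries were 0 bp apart. The authors annotated it to intergenic sequence as well. The transcribed pseudogene AT4G06597, also on chromosome 4, from 3655458 to 3656027, came next with 6.75-fold and 3.99-fold enrichment. Its pileups of 1116 and 1063 fragments were close to each other, while the background worked out from pileup and fold was 165 fragments in replicate 1 and 266 in replicate 2. Replicate 1 was thus higher at both sites.

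A peak on chromosome 2 from 10547123 to 10547649 covered 2 non-coding genes, the long non-coding RNA gene AT2G24755 and the pseudogene AT2G24760. It reached 3.32-fold in replicate 1 and 3.71-fold in replicate 2. The long non-coding RNA gene AT4G08065, on chromosome 4 from 14363826 to 14364753, had 3.32-fold and 3.36-fold enrichment, and the peak also lay in its own promoter. Enrichment reached 3-fold in both lists at these 4 peaks, or 0.378% of the members (95% Wilson interval 0.147 to 0.969%), against 1.42% of all shared peaks. Without asking for a partner, 3-fold was reached by 0.905% of peaks over non-coding exons in replicate 1, against 1.29% of all its nuclear peaks, and by 0.352% in replicate 2, against 1.29%. At the lower level of 2-fold in both lists there were 234 members, or 22.1% (19.7 to 24.7%), against 22.1% of all shared peaks. Intervals cover error in counting peaks only, and peaks that lie close together share fragments and background.

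**Figure D1:**
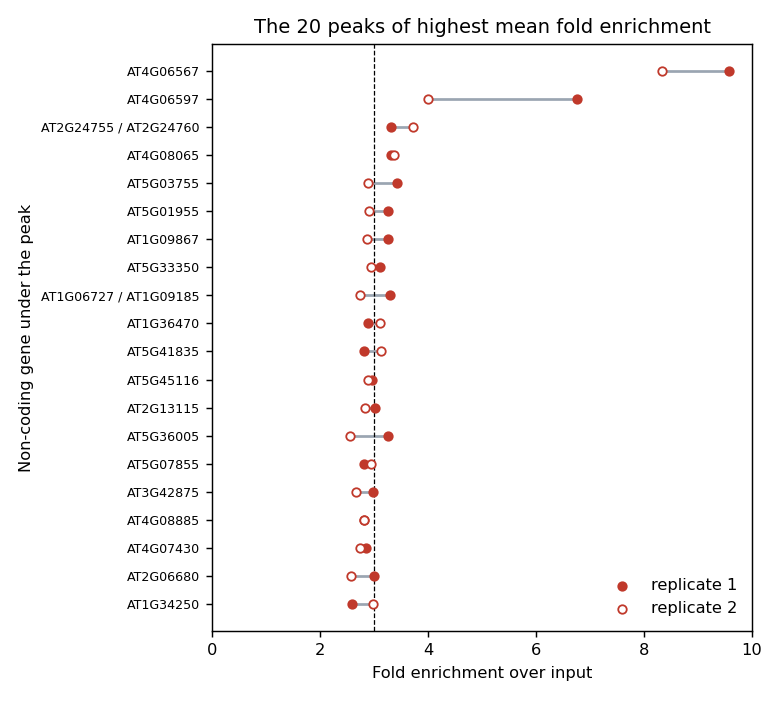
Fold enrichment over input (horizontal axis, linear) of the 20 peaks over non-coding exons with the highest mean, 1 row per peak with its non-coding genes, filled points for replicate 1 and open points for replicate 2. Only the top 4 rows lie to the right of the dashed line at 3-fold in both libraries, and AT4G06597 has the widest gap between them, 6.75 against 3.99.

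Below these 4, other members reached 3-fold in at most 1 library. The transcribed pseudogene AT5G33350 was the nearest by its lower value, with 3.11-fold in replicate 1 and 2.94-fold in replicate 2. The long non-coding RNA gene AT5G03755 had 3.43-fold and 2.88-fold, and AT5G01955, of the same type, 3.25-fold and 2.90-fold. The small nucleolar RNA gene AT1G09867 had 3.25-fold and 2.86-fold. The pseudogenes AT1G36470 and AT5G41835 were higher in replicate 2, at 2.89-fold and 3.11-fold for AT1G36470 and 2.81-fold and 3.13-fold for AT5G41835. Among the 20 peaks with the highest mean, 14 were higher in replicate 1 and 6 in replicate 2. Over all members the split was 508 and 549.

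Of these 20 peaks, all but that at AT1G09867 lay over a pseudogene, transcribed or not, or a long non-coding RNA gene. A peak can cover several genes, and 10 of the 20 lay over a pseudogene, 3 over a transcribed pseudogene and 7 over a long non-coding RNA gene. These types also made up most of the members, at 30.2%, 13.8% and 39.5% of all member peaks in the same order. AT1G06727 and AT1G09185, a long non-coding RNA gene and a miscellaneous RNA gene under 1 peak, had 3.29-fold and 2.73-fold. The long non-coding RNA gene AT4G08885 had 2.82-fold in replicate 1 and 2.81-fold in replicate 2, the closest values of the 20. The pseudogene AT5G36005, in contrast, had 3.26-fold and 2.55-fold on pileups of 64 and 47 fragments. AT2G06680 had the lowest pileups of the 20, 41 and 37 fragments, with 3.00-fold and 2.57-fold.

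Over all members the median fold enrichment was 1.90 (quartiles 1.76 and 2.07), against 1.89 (1.74 and 2.07) for all shared peaks. By library the members' median was 1.88 in replicate 1 and 1.91 in replicate 2. Median pileup at the summit was 85 and 80 fragments for the members, against 87 and 82 for all shared peaks. These pileups are the only measure of depth used here. Members were 464 and 448 bp wide at the median, against 475 and 463 bp for all shared peaks. At 2-fold in both lists the members' 22.1% was below the 29.2% (27.2 to 31.3%) of the 1877 shared peaks annotated to intergenic sequence alone, whose median was 1.96. It was above the 18.7% (18.0 to 19.4%) of the 10991 shared peaks with a coding exon, whose median was 1.86. These groups differed in input background. In replicate 1 it was under 40 fragments at 13.6% of members, 21.0% of intergenic peaks and 2.72% of coding-exon peaks. With at least 40 in both lists, 15.2% of members reached 2-fold, against 17.6% of all shared peaks with the same limit. Intergenic and coding-exon peaks were not split in this way. A low background raises fold enrichment by construction, and its part in the order of these groups was not tested. At 3-fold in both lists the members' 0.378% was below both the 0.906% of intergenic peaks (0.566 to 1.45%) and the 1.92% of coding-exon peaks (1.68 to 2.19%). It was close to the 0.355% (0.121 to 1.04%) of the 844 shared peaks with an intron and neither kind of exon, whose median was 1.87, and its interval overlapped that of the 3521 peaks annotated to promoters alone, at 0.682% (0.458 to 1.01%). A small share at 3-fold was thus not particular to the members. Of the 276 shared peaks that covered a non-coding exon together with coding sequence, 4 reached 3-fold in both lists, or 1.45% (0.565 to 3.67%).

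**Figure D2:**
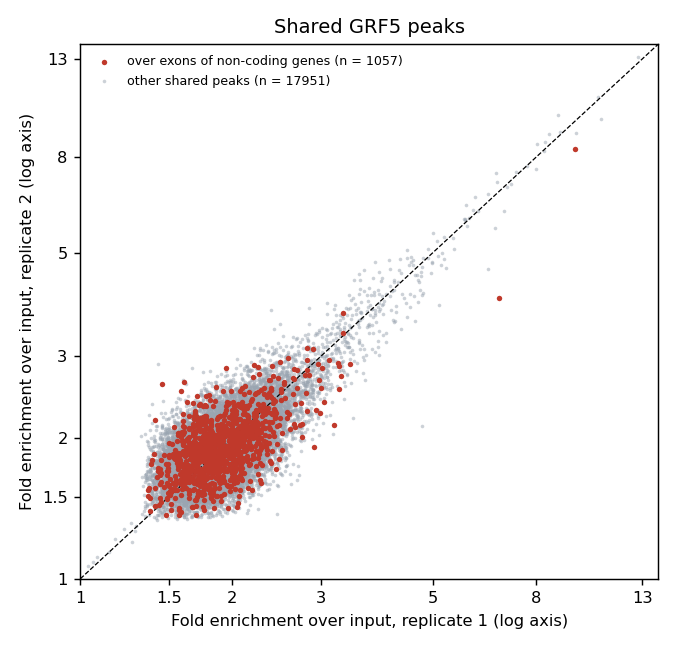
Fold enrichment over input in replicate 1 (horizontal, log axis) and replicate 2 (vertical, log axis) for the 1057 peaks over non-coding exons (red) and the 17951 other shared peaks (grey), with the line of equal values dashed. Most red points sit between 1.5- and 3-fold, with AT4G06567 (9.58, 8.33) and AT4G06597 (6.75, 3.99) far from the rest.

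By fold enrichment the libraries matched slightly less well at these peaks than over all shared peaks, and by position about as well. The log2 ratio of replicate 1 to replicate 2 had an SD of 0.199 over members and 0.188 over all shared peaks. As a description across peaks that share libraries and input, Spearman's rho of the fold enrichments was 0.520 for members and 0.572 for all shared peaks. Pearson's r of the log2 fold enrichments was 0.636 and 0.719. Summits of members lay a median of 50 bp apart, and 721 of them (68.2%) within 100 bp, against 65.2% of all shared peaks. In replicate 1, 1767 peaks had a non-coding exon and no coding exon, and 65.6% of them (63.4 to 67.8%) had a partner of any annotation in replicate 2, against 67.0% of all its nuclear peaks. In replicate 2 it was 67.9% of 1705 such peaks (65.7 to 70.1%), against 70.3%. Unmatched peaks of this kind were weaker, with medians of 1.73 in replicate 1 and 1.75 in replicate 2, and none of them reached 3-fold. All unmatched nuclear peaks were weaker too, with medians of 1.71 and 1.74. Only 8 of these 9341 peaks in replicate 1 and 4 of 8046 in replicate 2 reached 3-fold. With 607 and 547 unmatched peaks over non-coding exons, the lack of any at 3-fold does not set them apart. Next to the overlap limit, the peak at AT5G35606 overlapped its partner by 51.1% (1.71-fold and 1.77-fold) and was kept, while that at AT1G60120 overlapped by 49.8% (1.68-fold and 1.62-fold) and was not.

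At 6 members (0.568%, against 0.268% of all shared peaks) the fold enrichments of the libraries differed by at least 1.5 times. AT4G06597 was one of them. At AT4G13900, a transcribed pseudogene named RLP49 for its receptor-like protein relatives, enrichment was 1.61-fold and 2.64-fold, with summits 336 bp apart. AT4G02795, AT3G05465 and AT3G07935 were also higher in replicate 2, with summits 285 to 435 bp apart, so the values there describe different places in 1 peak. At AT4G05355 the summits were 18 bp apart, and the values were 2.91-fold and 1.92-fold.

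By type of gene, the 1057 peaks covered 1083 non-coding genes, 978 of the peaks 1 gene each and 79 of them 2 or more. Long non-coding RNA genes, antisense RNAs included, were under 417 peaks, pseudogenes under 319 and transcribed pseudogenes under 146. Genes that RefSeq classes as miscellaneous RNA were under 122 peaks and as other non-coding RNA under 66. Small nucleolar RNA genes were under 16, microRNA genes under 6 and transfer RNA genes under 5. No member covered a small nuclear RNA gene, of which the gene table lists 82, or 1 of its 4 nuclear ribosomal RNA genes. Exons of 2 small nuclear RNA genes (2.44%) did lie under shared peaks, which also reached coding sequence and so were no members.

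The share of each class that carried a member peak ranged widely. It was 59 of 221 other non-coding RNA genes (26.7%), 114 of 508 miscellaneous RNA genes (22.4%), 137 of 926 transcribed pseudogenes (14.8%) and 446 of 3559 long non-coding RNA genes (12.5%). It was 291 of 3917 pseudogenes (7.43%), 25 of 287 small nucleolar RNA genes (8.71%), 6 of 326 microRNA genes (1.84%) and 5 of 625 transfer RNA genes (0.8%). These shares are not corrected for gene length, and exons of transfer RNA and microRNA genes are short, so they rank no class by affinity. Counting also shared peaks that reached coding sequence, 658 long non-coding RNA genes (18.5%) had a shared peak over an exon, as did 300 pseudogenes (7.66%).

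**Figure D3:**
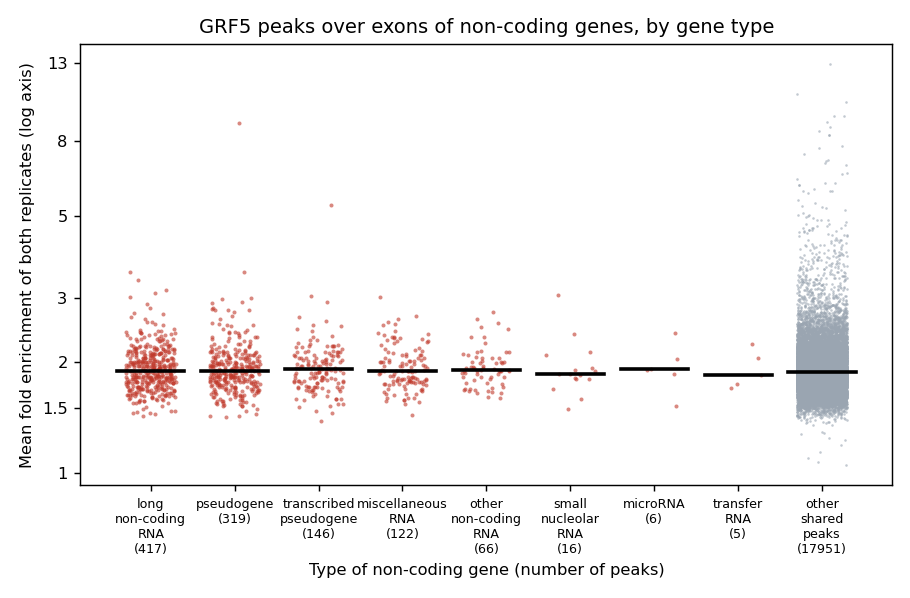
Mean fold enrichment of both replicates (vertical, log axis) for each peak over a non-coding exon, by type of gene with the number of peaks, and for the other shared peaks in grey, with a black bar at each median. The medians of the 8 types lie between 1.85 and 1.91, and the 2 highest members are a pseudogene peak and a transcribed pseudogene peak.

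Strength hardly varied with type. The median fold enrichment was 1.90 for long non-coding RNAs, pseudogenes and miscellaneous RNAs, 1.91 for transcribed pseudogenes, other non-coding RNAs and microRNAs, 1.86 for small nucleolar RNAs and 1.85 for transfer RNAs. At least 2-fold in both lists was reached by 22.8% of long non-coding RNA peaks (19.0 to 27.0%), 21.9% of pseudogene peaks (17.8 to 26.8%) and 22.6% of transcribed pseudogene peaks (16.6 to 30.0%). All 3 intervals include the 22.1% of all shared peaks.

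MicroRNA genes were covered at 6 sites. MIR396a (AT2G10606), whose product cleaves growth-regulating factor transcripts, lay under a peak from 4142074 to 4142685 of chromosome 2, at 2.03-fold in replicate 1 and 1.79-fold in replicate 2. Its mean was near the median of all members, the summits of the libraries were 334 bp apart, and the peak also lay in the MIR396a promoter and in intergenic sequence. MIR396b (AT5G35407), which gives rise to the second copy of this microRNA, had no exon peak but 2 shared promoter peaks, with 2.51-fold and 2.25-fold and with 1.84-fold and 1.99-fold.

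MIR395e (AT1G69795), of the family induced by sulfate shortage, had the highest of the microRNA peaks, 2.35-fold and 2.45-fold, on chromosome 1 from 26272632 to 26273855. The same peak lay in the promoter of its neighbour MIR395f. MIR166e (AT5G41905), of the family that targets class III homeodomain-leucine zipper transcripts, had 1.93-fold and 1.92-fold. MIR169c (AT5G39635), of the family that targets NF-YA transcripts and is known from nitrogen starvation, had the lowest, 1.47-fold and 1.57-fold. MIR4221 had 2.16-fold and 1.92-fold in a peak it shared with the long non-coding RNA gene AT4G06265, and MIR5665 had 1.6-fold and 2.11-fold. The libraries were closest at MIR166e and farthest apart at MIR5665.

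Peaks in promoters of microRNA genes were far more frequent than peaks over their exons. Of 326 MIR genes, 122 had a shared promoter peak and 8 a shared peak over an exon, 6 of them members. Of the 51 genes in microRNA families linked to nitrogen or root growth, 23 had a shared promoter peak and 2, MIR396a and MIR169c, a member peak over an exon. The share of all genes with a shared promoter peak was not counted. These numbers therefore show no preference for microRNA genes or for these families. The mature regions are not marked in the peak lists, and a promoter spans more sequence than a microRNA exon, so the counts are not comparable per base.

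Of 8 trans-acting siRNA genes, 2 had a member peak. Both are classed as other non-coding RNA, a class in which 59 of 221 genes (26.7%) had a member peak. The count of 2 of 8 therefore does not set the trans-acting siRNA genes apart. TAS4 (AT3G25795), whose siRNAs target MYB transcripts of anthocyanin synthesis, had 2.4-fold in replicate 1 and 2.85-fold in replicate 2 on chromosome 3 from 9417794 to 9418607. This peak had no annotation besides the TAS4 exon. TAS3b (AT5G49615), of the family whose siRNAs target auxin response factor transcripts, had 1.92-fold and 2.19-fold on chromosome 5 from 20134388 to 20134744, a peak that also lay in the promoter of AT5G49610. A further shared peak, with 1.79-fold and 1.77-fold, lay in the TAS3b promoter and over coding sequence. Both exon peaks were higher in replicate 2. TAS1A had a shared promoter peak that reached coding sequence of AT2G27402, with 1.88-fold and 2.19-fold, and TAS1B, TAS1C, TAS2, TAS3 and the third TAS3 gene (TASIR-ARF) had no shared peak. IPS1, a target mimic of miR399 in phosphate shortage, is protein-coding in this annotation, and its 2.41-fold and 2.06-fold peak is therefore no member. The other mimic gene listed, AT5G03545, and the signal recognition particle RNA gene AT7SL-1 had no shared peak.

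Small nucleolar RNA genes often lie in clusters, and single peaks covered up to 4 of them. The peak at AT4G03295, AT4G04465, AT4G04475 and AT4G04485 on chromosome 4 had 1.80-fold in replicate 1 and 2.47-fold in replicate 2. A peak over AT3G24614 and AT3G24615, and over the long non-coding RNA gene AT3G04775, had 1.95-fold and 2.82-fold. AT2G07605 had 2.08-fold and 2.10-fold. Of the transfer RNA genes, AT5G50805 had 2.23-fold and 2.26-fold, AT1G28730 2.03-fold and 2.07-fold, AT2G33890 1.69-fold and 2.02-fold, and AT1G28830 2.06-fold and 1.45-fold. The summits were 294 bp apart at AT2G33890 and 472 bp apart at AT1G28830, so the values there describe different places. AT5G38155, the lowest by mean, had 1.64-fold and 1.76-fold in a peak also over the pseudogene PMI15. Small RNA genes, transfer RNA genes and pseudogenes can have near-identical copies, and how reads from such copies were placed is not given in the sources used here, so their values are uncertain.

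Several pseudogenes and non-coding RNAs with a name of their own were also covered. These examples were taken from genes with a symbol after their values were seen. AOP2 (AT4G03060), a glucosinolate side-chain gene that is not functional in Col-0, had 1.99-fold in replicate 1 and 1.82-fold in replicate 2. PSEUDOSRKA (AT4G21370), a remnant of the self-incompatibility receptor kinase, had 2.04-fold and 1.87-fold. The MUSTANG genes, which derive from transposases, were represented by MUG1 with 1.91-fold and 1.77-fold, MUG5 with 1.99-fold and 2.08-fold, and MUG8 with a pair of peaks at means of 1.99 and 1.96. The retrotransposon SADHU5-1 had 1.42-fold and 1.65-fold. GUT15 (AT2G18440), which encodes an unstable non-coding transcript, had 1.93-fold and 2.24-fold in partner peaks that overlapped by 52.1% of the shorter one. The summits of the GUT15 peaks were 1512 bp apart, so its values describe different places. Other pseudogenes with a symbol had higher single values, namely RLP49, given above, ML3 with 1.67-fold and 2.38-fold, UBC26 with 2.33-fold and 2.18-fold, and EXT11 with 2.27-fold and 2.08-fold.

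The long non-coding RNA peaks lay in a promoter of a neighbouring protein-coding gene more often than the pseudogene peaks did. The share of all shared peaks in such a promoter was not worked out, so only gene types are compared here. By the authors' promoter annotation, whose length is not given in the sources used here, 433 members (41.0%, 38.0 to 44.0%) lay in the promoter of at least 1 protein-coding gene in both lists and 393 (37.2%) in the promoter of the non-coding gene itself. Of long non-coding RNA peaks, 255 (61.2%, 56.4 to 65.7%) lay in a protein-coding promoter. Of pseudogene peaks, 37 (11.6%, 8.53 to 15.6%) did, and of transcribed pseudogene peaks 53 (36.3%, 28.9 to 44.4%). Introns of non-coding genes were touched by 224 members (21.2%), and introns of protein-coding genes by 35 (3.31%). A further 127 members (12.0%) had no annotation other than non-coding exons in either list, the TAS4 peak among them.

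**Figure D4:**
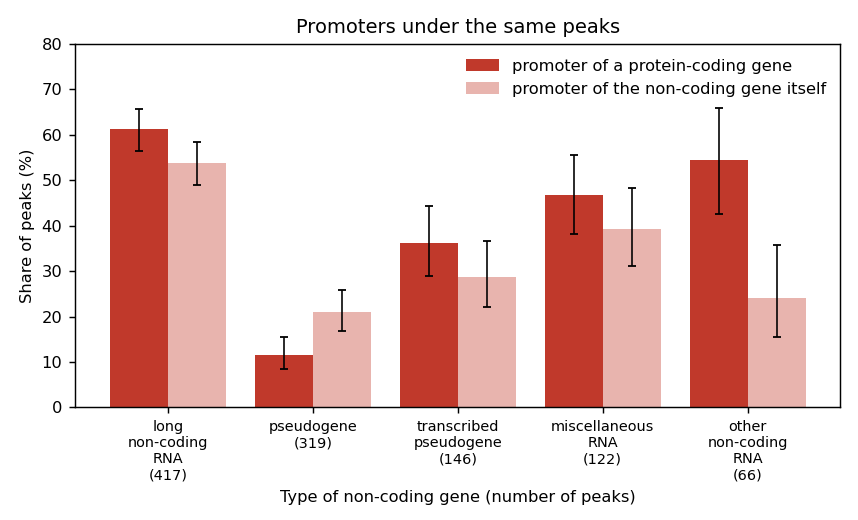
Share of peaks (vertical, percent, with 95% Wilson intervals) that also lay in the promoter of a protein-coding gene (dark) or of the non-coding gene itself (light), for the 5 gene types with the most peaks. The dark bar is highest for long non-coding RNAs, 61.2%, and lowest for pseudogenes, 11.6%.

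Member peaks touched the promoters of 514 protein-coding genes, and 438 of these had no other shared promoter peak. How many of all genes with a shared promoter peak have a single one was not counted, so this number does not set the members apart. These examples were chosen after their values were seen. The highest of all belonged to PRR5 (AT5G24470), a pseudo-response regulator of the circadian clock, which shared the 3.43-fold and 2.88-fold peak over the long non-coding RNA gene AT5G03755 on chromosome 5 from 8359707 to 8360314. BAG1 (AT5G52060), a co-chaperone gene, shared the 2.81-fold and 2.95-fold peak over AT5G07855. PRK3 (AT3G42880), a pollen receptor-like kinase gene, shared that of the pseudogene AT3G42875 with 2.98-fold and 2.67-fold. HMGB6 (AT5G23420), of the high mobility group of chromatin proteins, shared a 3.05-fold and 2.4-fold peak with the long non-coding RNA gene AT5G03615. Peaks in the promoter of a protein-coding gene had a median of 1.89, and 0 of the 433 reached 3-fold in both lists, with an upper Wilson bound of 0.879%.

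Some of these neighbours act in nitrate use, GSK3-like kinase signalling, root patterning or meristems, and were picked from the 514 genes after their values were seen. Genes of these pathways without such a peak were not counted, so the examples cannot show a preference for any pathway. The median of all members was 1.90. NRT1.8 (AT4G21680), a nitrate transporter gene, had 2.00-fold in replicate 1 and 1.90-fold in replicate 2 at a peak over the long non-coding RNA gene AT4G07025, on chromosome 4 from 11519723 to 11520665, beside 1 other shared promoter peak. LBD37 (AT5G67420), a repressor of nitrate-responsive genes, had 1.48-fold in both libraries at AT5G09915, near the bottom of the members. SK13 (AT5G14640), a GSK3-like kinase gene related to BIN2, had 1.95-fold and 2.06-fold at AT5G02275. SHR (AT4G37650), a regulator of root patterning, had 1.72-fold and 1.94-fold at AT4G09525, and KNAT6 (AT1G23380), a homeobox gene of meristems, had 2.33-fold and 2.03-fold at AT1G05797. The gene that the table calls GRF2 (AT1G78300), with 1.75-fold and 1.79-fold at AT1G09803, encodes a 14-3-3 protein, a general regulatory factor and not a growth-regulating factor. In every one of these cases a long non-coding RNA exon and a promoter lay under the same peak, and the lists do not separate them.

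Along the chromosomes, in 121 windows of 1 Mb, the number of members ranged from 1 to 25 with a median of 7, and that of all shared peaks from 33 to 218 with a median of 170. The 463 members over pseudogenes of either kind numbered 0 to 22 per window with a median of 2, and the 417 over long non-coding RNA genes 0 to 9 with a median of 3. The window with the most members, from 14 to 15 Mb of chromosome 3, held 25, of which 22 lay over pseudogenes, among 94 shared peaks. On chromosome 2 from 4 to 5 Mb, 24 of 111 shared peaks were members, 22 of them over pseudogenes. Both peaks at the head of the ranking, at AT4G06567 and AT4G06597, lay between 3 and 4 Mb of chromosome 4, where all 14 members were over pseudogenes. Members in pseudogene-rich windows were not strong as a set. In windows with 8 or more members over pseudogenes, 23.1% of 359 members reached 2-fold in both lists, with a median of 1.91. Of all 2263 shared peaks there, 29.1% did, with a median of 1.95. Annotated genes per window were not counted, so the window counts are not corrected for gene density. Chromosome 2 had the highest share of members among its shared peaks, 6.42%, and chromosome 1 the lowest, 4.77%.

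Few non-coding genes carried more than 1 member peak. Of the 1083 genes, 54 had 2 or more, and AT5G10278, an other non-coding RNA gene on chromosome 5, had 4, with means from 1.67 to 2.14. Of the 6 genes with 3 peaks, 4 were pseudogenes, among them AT5G28263 with means from 1.85 to 2.11 and AT5G30269 with means from 1.92 to 2.06. Peaks of 1 gene share their surroundings and are not independent.

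The input background differed with gene type and moved with fold enrichment. It was worked out from pileup and fold enrichment and was 44.6 fragments in replicate 1 and 41.6 in replicate 2 at the median member, against 45.8 and 43.0 for all shared peaks. A background under 40 fragments in replicate 1 was found at 24.1% of pseudogene peaks, 7.67% of long non-coding RNA peaks and 13.6% of all members, against 7.44% of all shared peaks. With a background of at least 40 in both lists, 711 members had a median fold enrichment of 1.84 and 15.2% of them reached 2-fold in both, against a median of 1.86 and 17.6% of the 15169 shared peaks of the same kind. With less in either list, 346 members had a median of 2.01 and 36.4% reached 2-fold, against 2.03 and 39.9% of 3839 shared peaks. Of the 20 strongest members, 9 had a background under 40 in either list, and at AT2G06680 it was 13.0 and 13.8. Fold enrichment is a ratio with this background below the line, so low values raise it by construction, and the part of the background in the ranking of members was not tested.

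**Figure D5:**
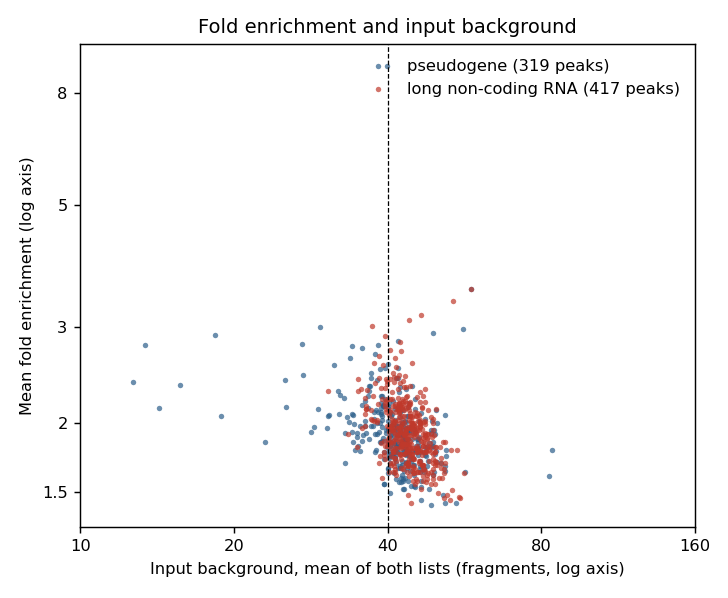
Mean fold enrichment (vertical, log axis) against the input background, mean of both lists in fragments (horizontal, log axis), for peaks over pseudogenes (blue, 319) and long non-coding RNA genes (red, 417), with a dashed line at 40 fragments. Points left of the line are mostly pseudogene peaks, and AT4G06567 stands alone at the top.

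At the other end of the scale, the miscellaneous RNA gene AT3G00670 on chromosome 3, from 14212773 to 14213025, had the highest pileup of all members, 1453 and 1364 fragments. Its background was 1010 and 947 fragments and its fold enrichment only 1.43 in replicate 1 and 1.44 in replicate 2. It was picked for its pileup after the values were seen. The lowest mean fold enrichments belonged to AT2G31860 with 1.37-fold and 1.40-fold, AT3G30722 with 1.41-fold and 1.43-fold, and AT3G17260 with 1.48-fold and 1.37-fold. The peak at AT3G30722 also lay in the promoter of QQS, a small gene that affects starch content. At all 4 of these peaks the libraries gave much the same low value.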

How the data were processed

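The submitters' processing notes name Trimmomatic 0.39 for trimming reads, Bowtie2 2.4.6 as the aligner, TAIR10 as the build and MACS2 2.2.7.1 as the peak caller. The settings of these tools were not given in the sources used. Each deposited list gives the pileup signal in fragments, the fold enrichment as a ratio over the input background, and −log10 p and −log10 q, per the file headers. Both lists were called separately against 1 input, and their file positions and widths were used with 1 bp added to starts. Entries were collapsed to 28349 and 27054 nuclear peaks by position.

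Partners were taken by largest overlap first, and the matching was tested on simulated data. Background was computed as (pileup + 1) / fold enrichment − 1, which assumes the usual pseudocount of the caller. Shares carry 95% Wilson intervals. Gene types and symbols came from the RefSeq gene table of TAIR10.1 by locus tag, and no coordinates of it were used. All 1057 members were kept without a filter. Tables were handled with pandas 2.3.3 and numpy 2.4.6 in Python 3.11.15, intervals came from scipy 1.17.1, and plots from matplotlib 3.10.9.

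Members and lists were chosen with earlier results of these data known. Named genes were the 20 members with the highest mean, up to 4 per gene type, the 3 lowest, and members of lists of MIR genes, nitrogen- or root-linked MIR families, trans-acting siRNA genes, phosphate mimic RNAs, signal recognition particle RNA and characterised long non-coding RNAs, the last of which matched 0 genes by symbol. A search for the GRF core motif had been planned and was not run, since no genome sequence was used here. Alternatives varied the overlap, the q limit, the gene and region rules and the library.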

Additional observations from a re-analysis of the deposited data

Results flagged for a closer look

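Chloroplast and mitochondrial DNA lies outside the comparisons above, and it also held 5 shared peaks over exons of non-coding genes without a coding exon. The 2 chloroplast peaks had 1.58-fold and 1.62-fold enrichment and 1.76-fold and 1.75-fold, on pileups from 13634 to 14853 fragments. The 3 mitochondrial peaks had 1.57-fold and 1.54-fold, 1.5-fold and 1.52-fold, and 1.38-fold and 1.49-fold, on pileups from 664 to 818 fragments. No sample without GRF5 protein has peaks to compare them with.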

How the results depend on the processing

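Counts depended mainly on which peaks were admitted. When −log10 q had to reach 5, members numbered 447, with a median of 2.1, 51.2% of them at 2-fold in both lists, and 53.3% of such peaks in replicate 1 had a partner. Without promoter entries 263 members were left, with a median of 1.88. From single libraries, with no partner required, the number was 1705 to 1767, the median 1.82 to 1.86 and the share at 2-fold 27.1 to 30.9%. A q limit admits stronger peaks by construction. Neither the values under it nor the single-library shares at 2-fold were worked out over all peaks. They cannot be set against the 22.1% of all shared peaks. Taking the lower library value gave a median of 1.79. With an overlap of 80% the matched share was 62.8%, and for replicate 2 it was 67.9%. Without peaks of a background under 40 fragments in either list, an alternative added after the data were seen, the median was 1.84 and the share at 2-fold 15.2%. Over all shared peaks with the same limit, they were 1.86 and 17.6%. The remaining 24 alternative values stayed within 1.5 times (counts) or within their spread or interval (medians and shares), among them those for an overlap of 1 bp, for exons of different genes and without intron entries. The share at 3-fold in both lists, which rests on 4 peaks, was 0.352 to 0.905% from single libraries and 0.895% with the stricter q limit. No paired analysis was possible because the input has no peak list and there is only 1 group with replicates. The motif alternatives were not run. Pileups near 80 fragments limit the precision of single values.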

Other observations

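Peaks over non-coding exons that 1 library alone showed reached at most 2.88-fold in replicate 1 and 2.87-fold in replicate 2. Over all unmatched nuclear peaks, a far larger set, the highest were 3.94-fold and 5.11-fold. The 3 highest over non-coding exons in each library all lay over pseudogenes. In replicate 1 these were AT2G14843 with 2.88-fold, AT5G28285 with 2.87-fold and AT1G39350 with 2.87-fold, the last on a pileup of 53 fragments. In replicate 2 they were AT4G08120 with 2.87-fold, AT4G04635 with 2.75-fold and AT2G12305 with 2.57-fold. They had no partner in the other library at an overlap of 50%, and their values there are not in the lists.

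Among microRNA genes with a shared promoter peak but none over an exon, the 4 highest by mean were named after their values were seen. MIR8181 had 4.98-fold in replicate 1 and 4.76-fold in replicate 2, at a peak that also covered coding sequence of AT5G53340. MIR406 had 3.38-fold and 3.14-fold, with no coding exon under the peak. MIR5635a had 2.79-fold and 3.33-fold at the stronger of its 2 peaks, which also covered coding sequence of EFR, an immune receptor gene. MIR158a had 3.00-fold and 3.01-fold at the stronger of its 2, over coding sequence of AT3G10750.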
